A study of Homo sapiens with 3 samples.

Results

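H/ACA small nucleolar RNAs (snoRNAs) and small Cajal body RNAs (scaRNAs) were examined in total RNA of H9, an established human embryonic stem cell line. The members were the genes of type snoRNA or scaRNA in GENCODE release 44 whose symbol is SNORA or SCARNA followed by a number and at most 1 letter. This rule took 234 of the 58051 genes in the deposited counts, 210 with a SNORA symbol and 24 with a SCARNA symbol. RNA was sequenced, after depletion of ribosomal RNA, from 3 replicates of wild-type cells that received no treatment. All 3 libraries belong to a single condition, so no groups were compared, and the spread between replicates is the only error. The labels do not say whether the replicates were separate cultures.

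H/ACA RNAs form a pair of hairpins followed by short conserved boxes, the H box between the hairpins and the ACA triplet near the 3′ end. Bound by dyskerin (DKC1), NOP10, NHP2 and GAR1, they base-pair with a target RNA and direct the conversion of a chosen uridine to pseudouridine. SNORA RNAs act mainly on ribosomal RNA in the nucleolus, while scaRNAs act on spliceosomal RNAs in Cajal bodies. Most are cut out of introns of a host gene after splicing. Not every scaRNA belongs to the H/ACA class: SCARNA2, SCARNA7 and SCARNA17 carry the C/D boxes of methylation guides, and SCARNA5, SCARNA6, SCARNA10 and SCARNA12 carry both kinds. SCARNA symbols thus name a place in the cell and not a single class of guide.

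The following sequences, read from GRCh38 at the annotated coordinates and shown 5′ to 3′ as DNA letters, are those of SNORA73B, the RNA with most counts, of 3 others among those with high counts, and of a closely related RNA without counts. Capitals mark the ACA triplet where it stands 3 bases before the annotated end and, in SCARNA13 and SCARNA5, also TGAG, the letters of the CAB box that retains scaRNAs in Cajal bodies. SNORA79B also holds TGAG, which is left unmarked. The 2 stretches in SCARNA5 were marked by their letters alone. These do not tell a CAB box from part of the C/D boxes that SCARNA5 also carries. SNORA73B (ENSG00000200087) lies at chr1:28508559-28508762 on the plus strand, SNORA79B (ENSG00000222489) at chr14:20323179-20323326 on the minus strand, SCARNA13 (ENSG00000252481) at chr14:95533355-95533629 on the minus strand and SCARNA5 (ENSG00000252010) at chr2:233275727-233276002 on the plus strand.
SNORA73B: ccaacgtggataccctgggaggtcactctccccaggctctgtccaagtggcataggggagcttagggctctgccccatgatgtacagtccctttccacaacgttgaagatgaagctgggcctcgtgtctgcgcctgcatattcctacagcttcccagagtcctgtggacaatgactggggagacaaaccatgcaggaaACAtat
SNORA79B: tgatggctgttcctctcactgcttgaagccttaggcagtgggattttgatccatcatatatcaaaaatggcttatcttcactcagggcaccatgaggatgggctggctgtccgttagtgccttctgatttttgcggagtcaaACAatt
SCARNA13: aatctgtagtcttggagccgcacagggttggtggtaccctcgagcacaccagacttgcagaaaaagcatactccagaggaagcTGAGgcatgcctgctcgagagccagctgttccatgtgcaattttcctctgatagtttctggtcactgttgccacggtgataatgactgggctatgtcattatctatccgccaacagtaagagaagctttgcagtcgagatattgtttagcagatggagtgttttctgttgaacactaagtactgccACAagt
SCARNA5: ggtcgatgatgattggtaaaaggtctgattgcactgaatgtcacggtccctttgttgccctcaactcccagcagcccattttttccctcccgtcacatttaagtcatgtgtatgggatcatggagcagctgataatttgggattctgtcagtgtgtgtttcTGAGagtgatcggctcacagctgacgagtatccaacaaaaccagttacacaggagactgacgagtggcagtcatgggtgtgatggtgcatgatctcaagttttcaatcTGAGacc
In SNORA73A (ENSG00000274266, chr1:28507366-28507571, plus strand), capitals mark the bases that differ from SNORA73B in a global alignment.
SNORA73A: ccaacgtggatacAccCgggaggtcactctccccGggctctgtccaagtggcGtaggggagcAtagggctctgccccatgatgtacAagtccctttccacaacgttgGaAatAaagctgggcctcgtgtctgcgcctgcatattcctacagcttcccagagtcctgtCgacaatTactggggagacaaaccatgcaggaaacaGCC

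The ACA triplet stood 3 bases before the annotated end of 154 of the 234 members, which is 65.8%. In 56677 other annotated genes the share was 2.73%, and in 313 C/D box snoRNA genes (symbol SNORD) it was 1.60%. Among detected members (defined below) it was 57.6%, against 67.2% of those not detected. SCARNA5, SCARNA7 and SNORA71A are without it at that position. The H box, searched as ANANNA on the RNA strand, was found in 97.9% of members. These letters are common, and 70.3% of the first 134 bases of other genes held them as well. TGAG was found in 70.8% of SCARNA genes and 42.4% of SNORA genes, against 52.1% of the first 134 bases of other genes. For the H box and TGAG, members were searched over their whole length, such as 330 bases in SCARNA7, and other genes over 134 bases. The shares are thus not of equal stretches. All 3 searches used the strand of the gene alone, and a match describes letters, not a working box.

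The libraries held 10390984, 12024802 and 8655155 counts on genes in replicates 1, 2 and 3. Members received 3542, 4117 and 2864 of them. This was 0.0338 ± 0.000624% of all counts (SD, n = 3), with the lowest share in replicate 3, at 0.0331%. C/D box snoRNA genes received 0.0293 ± 0.00135% and snRNA genes 0.0180 ± 0.000659% of the counts (SD, n = 3). Markers of pluripotent cells fitted the label of the line, with POU5F1 at 799 ± 24.9 and LIN28A at 2576 ± 64.7 TPM (SD, n = 3), whereas PAX6, SOX17, TBXT, GATA4 and AFP lay between 0.709 and 1.75 TPM. TPM is a count divided by the length of the gene's exons and scaled to the same sum in each library.

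Detection was set at more than 3 counts in every replicate, since 3 counts is the upper limit that a count of 0 allows. For a gene of the median length of the members, 134 bases, 3 counts correspond to 8.60, 7.40 and 10.1 TPM in replicates 1, 2 and 3. These limits cover counting error only. By this rule 33 members were detected, which is 14.1% of them, against 32.8% of all genes. The share was 15.3% for C/D box snoRNA genes, 1.68% for snRNA genes and 71.9% for protein-coding genes. No read was counted on 131 members in any replicate, and 70 had some counts but not more than 3 in every library. Among SCARNA genes 7 of 24 were detected, and among SNORA genes 26 of 210. These shares describe genes of unequal length and annotation, and no test was made between them.

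A single gene held about as many reads as all the other members together. SNORA73B, which takes part in cleavage of the ribosomal RNA precursor rather than guiding a modification, had 1833, 2026 and 1330 counts in replicates 1, 2 and 3. These were 51.8%, 49.2% and 46.4% of the counts on members. Per length it had 3452, 3282 and 2937 TPM, a mean of 3224 ± 262 TPM (SD, n = 3), and ranked 17 among 56948 genes with a TPM. All 3 values were above those of every other member. The 10 members with most reads held 85.0 ± 0.344% of the counts on members (SD, n = 3), and the median detected member had 70 reads over the 3 replicates.

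**Figure D1:**
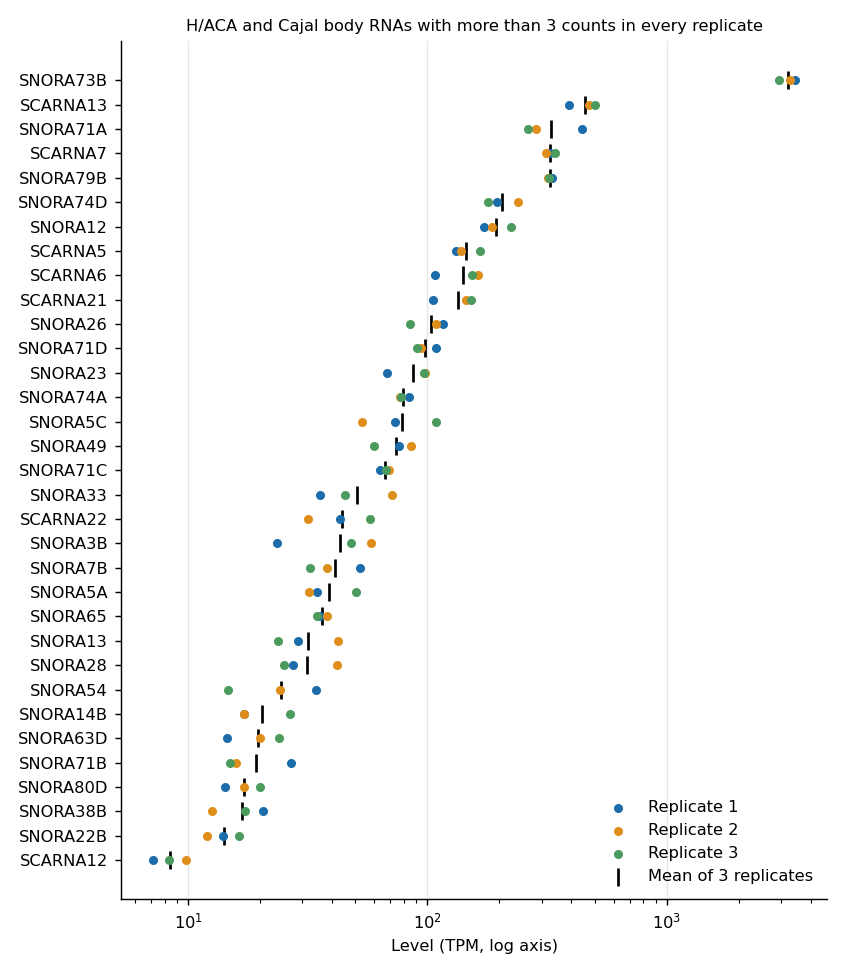
Levels of the 33 detected RNAs in TPM on a log axis, with a point for each of the 3 replicates and a bar for their mean. SNORA73B stands apart at a mean of 3224 TPM, and the rest run from 455 TPM (SCARNA13) down to 8.42 TPM (SCARNA12).

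SCARNA13, a guide of pseudouridylation in spliceosomal RNAs, came next by mean level. It had 281, 394 and 305 counts and a mean of 455 ± 55.9 TPM (SD, n = 3). SNORA71A, a guide for ribosomal RNA, had 441, 284 and 262 TPM. SCARNA7, a C/D box guide, had 325, 313 and 341 TPM, and SNORA79B had 332, 319 and 323 TPM. The means of these last 3 genes, from 325 to 329 TPM, differed by less than the SD of SNORA71A, 97.9 TPM, so that their order is not resolved. All 3 were below SCARNA13 in replicates 2 and 3, whereas in replicate 1 SNORA71A was above it.

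Below this group, SNORA74D had 205 ± 31.0 TPM and SNORA12 had 194 ± 26.5 TPM (SD, n = 3), with overlapping replicates. SCARNA5 and SCARNA6, the composite guides with both kinds of box, had 145 ± 18.4 and 141 ± 29.8 TPM (SD, n = 3). SCARNA21, of the H/ACA class, had 105, 145 and 152 TPM. These last 3 genes cannot be ordered by their replicates. SNORA23, with 32, 54 and 39 counts, and SNORA74A, with 43, 46 and 34 counts, had more reads than SNORA71D, with 38, 38 and 27, but lower levels per length, at 87.4 ± 17.2 and 79.2 ± 3.68 TPM against 97.8 ± 9.75 TPM (SD, n = 3). The spread of SNORA23 covers the difference.

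Of the SCARNA genes, 7 were detected. Besides those above, SCARNA22 (in NSD2) had 14, 12 and 16 counts, or 43.0, 31.7 and 57.7 TPM. SCARNA12, a composite guide in PHB2, had 5, 8 and 5 counts and 8.42 ± 1.34 TPM (SD, n = 3), the lowest level of the detected members. By kind of box, 1 of 3 C/D genes, 3 of 4 composite genes and 29 of 225 H/ACA genes were detected. SCARNA1 (3, 8 and 1 counts), SCARNA18 (0, 8 and 2), SCARNA20 (1, 4 and 2) and SCARNA10 (2, 1 and 2) had reads but were not detected. SCARNA2, SCARNA14, SCARNA15, SCARNA16, SCARNA17 and both genes named SCARNA4 had no read in any library.

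Members that differed in annotation differed in how often they were detected. An identifier of the gene nomenclature committee (HGNC) is attached to 171 members, and 33 of these were detected. Nearly all of the other 63 carry only the name of a family, such as nearly all of the 27 genes annotated as SNORA70 without a letter, and include most of the 75 members that share a symbol with another. None of those 63 was detected, and all of them together held 41 reads. A further genomic copy, with at least 95% identity over at least 90% of the length, was found for 29 members. Of these, SNORA7B alone was detected, with 19, 16 and 10 counts. Reads that fit several copies equally well cannot be assigned to any, so the values of these 29 are uncertain.

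Counts also differed with position relative to exons of other genes. In GENCODE release 44, 70 members lie wholly within exons of another gene on the same strand, 16 partly, and 148 share no base with such an exon. Of the 70 within exons, 59 had a count of 0 in all 3 libraries, which is 84.3%, against 43.2% of the 148 without overlap. Restricted to members with an HGNC identifier, 56 of 67 within exons and 22 of 91 without overlap were at 0, while 8 and 25 were detected. Of the 59 within exons and at 0, 57 had a host gene, and 39 of these lay in a host with at least 1000 reads over the 3 replicates. The exon is not always that of the host. SCARNA16 lies in an intron of its host SEC14L1, within exons of MIR6516 and SNHG20. A SCARNA4 entry lies in an intron of KHDC4, within its own second entry. Some hosts had few or no reads, such as MAGED4, the host of SNORA11D, with 0. A count of 0 here does not show that the RNA was absent. A counter that discards reads shared by several genes of a strand would leave such RNAs without counts. The tool and annotation behind the raw counts are not named in the sources used, and their part in this pattern was not tested.

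**Figure D2:**
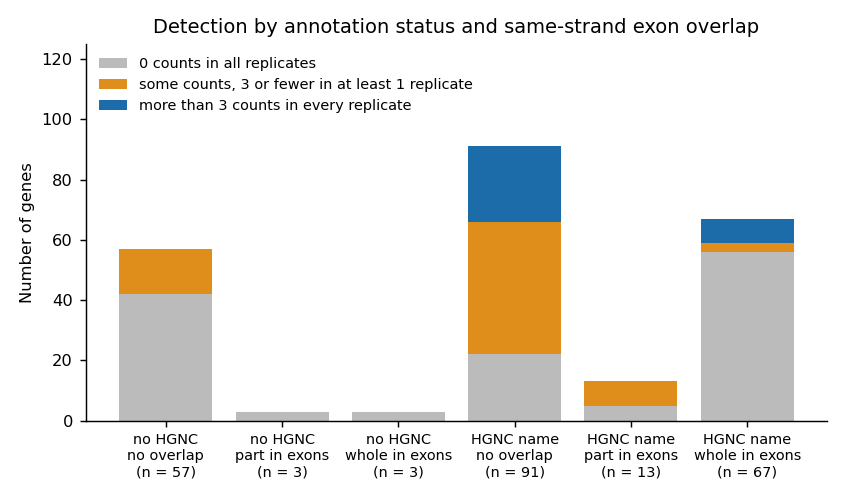
Number of H/ACA and Cajal body RNA genes (vertical axis) by HGNC identifier and by overlap with exons of another gene on the same strand, divided into genes with 0 counts in all replicates, with some counts and detected. Among genes with an HGNC identifier, 56 of 67 that lie wholly in exons are at 0, against 22 of 91 without overlap.

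In some hosts every member lay within exons and none had a count. TAF1D, which encodes a subunit of the RNA polymerase I factor SL1, holds the most members. SNORA1, SNORA8, SNORA18, SNORA25, SNORA32 and SNORA40 all lie in it and all had 0 counts in every library. TAF1D itself had 4528 reads and 72.3 ± 5.10 TPM (SD, n = 3), and all 6 RNAs lie wholly within its annotated exons. In EIF4A2, with 7956 reads, SNORA4, SNORA63, SNORA63B and SNORA81 were likewise within exons and at 0. SNHG12, with 581 reads, holds SNORA44, SNORA61 and 2 overlapping genes named SNORA16A, all at 0. DKC1, the gene of the H/ACA pseudouridine synthase, is itself host to SNORA36A and SNORA56, which lie within its exons and were at 0 while DKC1 had 5499 reads.

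Members with and without overlap occurred together in 6 hosts. In 5 of them every member wholly within exons of another gene was at 0, and in all 6 each member without overlap had reads. In 2 of the 6 those reads were few and the member was not detected, with 0, 4 and 0 counts for SNORA46 in CNOT1 and 2, 4 and 0 for SNORA80E in KHDC4. The exon that covers SCARNA4 is that of its second entry, and SCARNA4 lies in an intron of KHDC4. CNOT1 also holds 2 genes named SNORA50A, 1 of them wholly within exons. These 2 hosts thus bear less on the pattern. SNORA73A and SNORA73B both lie in the span shared by RCC1 and SNHG3 and are 93.2% identical. SNORA73A, of 206 bases, is wholly within an exon annotated for SNHG3 and had 0 counts, against 5189 on SNORA73B, which lies in an intron. In RPL27A, SNORA3B had 8, 23 and 14 counts and SNORA3A, within exons, had none. In TBRG4, SNORA5A had 12, 13 and 15 counts and SNORA5C had 26, 22 and 33, while SNORA5B, within exons, had none, although it is 89.6% identical to SNORA5A.

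SNHG17, a noncoding host, was the exception among these 6. SNORA71A, SNORA71C and SNORA71D are within its exons in GENCODE release 44 and were detected, and another RNA within its exons, annotated as SNORA71, was at 0. SNORA71A, SNORA71C and SNORA71D have the same annotated length of 134 bases, so that their counts compare without a correction for length. How far reads shared with the exons of SNHG17 enter or leave each count was not tested. Capitals in SNORA71C and SNORA71D mark the bases that differ from SNORA71A, which is shown without capitals.
SNORA71A: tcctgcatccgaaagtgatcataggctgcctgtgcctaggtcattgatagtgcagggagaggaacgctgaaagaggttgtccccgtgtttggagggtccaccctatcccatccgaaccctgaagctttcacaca
SNORA71C: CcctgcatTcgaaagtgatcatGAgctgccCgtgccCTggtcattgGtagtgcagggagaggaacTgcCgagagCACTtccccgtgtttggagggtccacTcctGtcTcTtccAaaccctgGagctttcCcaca
SNORA71D: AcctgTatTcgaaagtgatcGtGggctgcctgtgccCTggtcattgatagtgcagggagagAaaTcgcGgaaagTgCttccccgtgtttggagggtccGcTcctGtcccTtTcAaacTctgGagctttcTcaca
SNORA71A (chr20:38427309-38427442, minus strand) had 154, 115 and 78 counts. SNORA71D (chr20:38433865-38433998) had 38, 38 and 27, and SNORA71C (chr20:38429670-38429803) had 22, 28 and 20. The lowest value of SNORA71A was above the highest of the other two, and SNORA71D was above SNORA71C in every library. SNORA71A is 83.1% identical to each of the others, and SNORA71C and SNORA71D are 86.6% identical. SNORA71B, annotated with 272 bases in an intron, had 19, 13 and 9 counts and 19.2 ± 6.64 TPM (SD, n = 3), below the other 3 in every library. SNHG17 itself had 7.55, 9.22 and 9.88 TPM. The 4 detected RNAs of this single host thus had mean levels from 19.2 to 329 TPM, with the SNORA71 gene at 0.

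**Figure D3:**
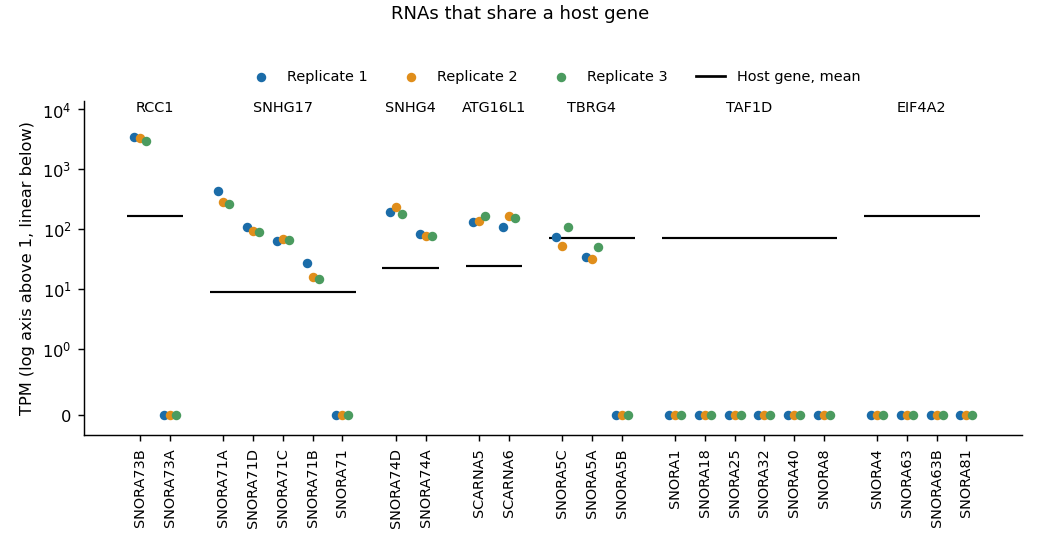
TPM of RNAs that share a host gene, with a point per replicate and a line for the mean of the host (vertical axis logarithmic above 1 and linear below). SNORA73A, SNORA5B, the SNORA71 in SNHG17 and all RNAs in TAF1D and EIF4A2 are at 0. The detected SNHG17 RNAs run from 329 TPM for SNORA71A to 19.2 TPM for SNORA71B.

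Other hosts differed in how close their members were to each other. SCARNA5 and SCARNA6, both in introns of ATG16L1, had 95, 115 and 102 and 74, 131 and 90 counts, and their means per length differed by less than the SD of either. SNORA74D and SNORA74A, both in introns of SNHG4, had 205 and 79.2 TPM, without overlap between replicates. An intronic position was found for 100 members, of which 23 were detected and 29 were at 0. In an exon of the host, at least in part, were 69 members, of which 8 were detected and 53 at 0. No host was found for 65 members, and SNORA7B and SNORA63D were the 2 of them that were detected.

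Detected members were compared with their hosts in reads per kb of exon, summed over the replicates. Of the 31 detected members with a host, 18 were above it and 13 below, with a median ratio of 1.43. In every replicate 16 were above and 13 below. Summed over the replicates, all detected members with a noncoding host were above it, so the 13 below all had protein-coding hosts. SCARNA13 had the highest ratio, at 81.8 times SNHG10, with 76.1, 96.2 and 72.7 in replicates 1, 2 and 3. SCARNA13 lies within an SNHG10 exon, and 46.2% of it also lies over exons of GLRX5 on the opposite strand. GLRX5 had 836 reads per kb and SCARNA13 3564. The part of reads from the other strand was not tested. SNORA71A had 37.3 times the reads per kb of SNHG17, and SNORA73B 19.5 times those of RCC1. RCC1 had 1307 reads per kb and was taken for its higher count. SNHG3, whose span also contains SNORA73B, had 953. SCARNA7 in KPNA4, SCARNA5 and SCARNA6 in ATG16L1, SNORA12 in CWF19L1, SNORA79B in CCNB1IP1 and SCARNA21 in CHD3 had ratios between 3.01 and 5.83.

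Several members in highly expressed hosts had the lowest ratios. SNORA33 had 12, 28 and 13 counts and 0.0124 times the reads per kb of RPS12. SNORA65 had 12, 15 and 10 counts and 0.0484 times those of RPL12, and SNORA22B in the chaperonin gene CCT6A had 0.0273 times. Across the 31 detected members, Spearman's rho between reads per kb of the host and of the member was -0.48. Over all 169 members with a host it was 0.19. These correlations are across genes that share libraries, and the host value enters the ratio, so they are given as a description. Counts on an intronic RNA do not tell the mature RNA from the unspliced transcript of its host. With the longest transcript as length of the host, 14 of the 31 were above it.

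**Figure D4:**
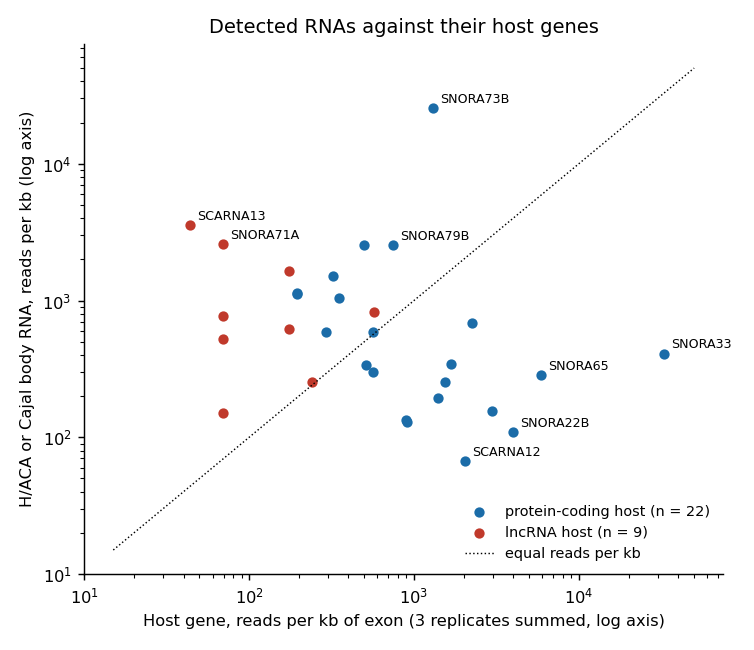
Reads per kb of the 31 detected RNAs with a host gene (vertical axis) against reads per kb of exon of the host (horizontal axis), both summed over 3 replicates on log axes, by type of host. SCARNA13, SNORA71A and SNORA73B lie far above the line of equal values, and SNORA33, SNORA65, SNORA22B and SCARNA12 far below it.

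Members with at least 200 bases were detected more often than shorter ones. Of 15 members with at least 200 bases, 7 were detected (46.7%), against 2 of 21 with at least 150 but under 200 bases (9.52%) and 24 of 198 with fewer than 150 bases (12.1%). Members with at least 200 bases held 73.3% of the reads on members, most of them on SNORA73B. The 7 detected include SCARNA5, SCARNA6, SCARNA7 and SCARNA12, which carry C/D boxes alone or besides H/ACA boxes. Length and kind of box thus go together among them and cannot be told apart. Without overlap with exons of the same strand, the shares were 5 of 9, 2 of 16 and 18 of 123. Spearman's rho between length and reads per kb was 0.25 across all members and 0.41 across those detected. RNA was isolated with silica columns, which retain short RNAs less well than long ones, and a fragment of cDNA must fit within the RNA. The part of either in this pattern was not tested. Long members without detection included SNORA53, of 249 bases, with 1, 5 and 1 counts, and SNORA74B, of 201 bases, with 3, 6 and 5. No test was made between length classes.

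**Figure D5:**
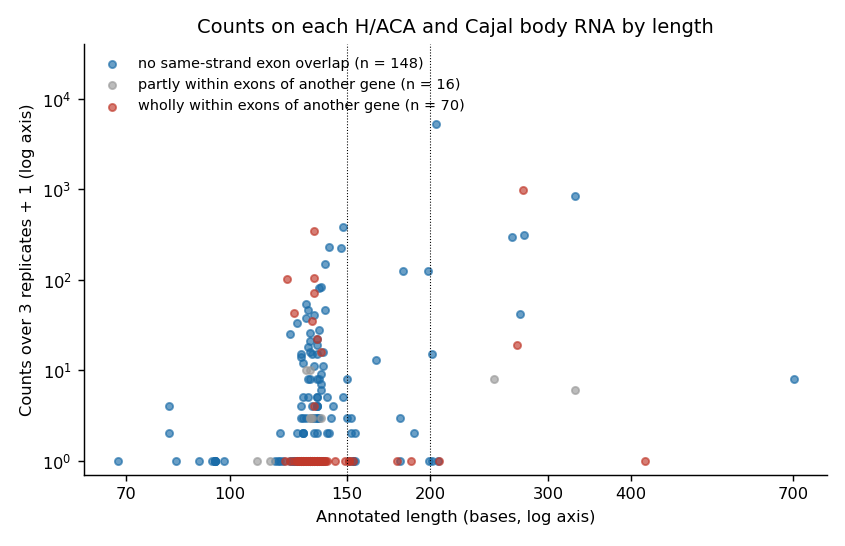
Counts over the 3 replicates plus 1 (log axis) of all 234 members against annotated length in bases (log axis), colored by overlap with exons of another gene on the same strand. Dotted lines mark 150 and 200 bases. The members with at least 200 bases include SNORA73B with 5189 counts, and members at 0 counts occur among short and long members, both within exons and without overlap.

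Agreement between replicates was tested gene by gene. The counts of a gene in the 3 libraries were set against the library totals by a chi-square test, on all 18451 genes with at least 20 counts, with Benjamini-Hochberg adjustment. This compares libraries, not conditions. At an adjusted p under 0.05, 10.9% of all genes tested varied beyond counting error, and 3 of the 32 members tested did, or 9.38%, a share near that of all genes. SNORA71A varied most, with 14.8, 9.56 and 9.01 CPM, which are counts scaled to the library total, in replicates 1, 2 and 3 (chi-square test, adjusted p = 0.00176). SNORA73B had 176, 168 and 154 CPM (chi-square test, adjusted p = 0.00910). SCARNA13 had 27.0, 32.8 and 35.2 CPM (chi-square test, adjusted p = 0.0407). None of the 3 passed when the spread common to all genes was added to the counting error, or without replicate 1, and without replicate 3 SNORA71A alone did. The median coefficient of variation of the 33 detected members was 19.0%.

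The genes of the protein partners of H/ACA RNAs were read at the level of RNA. All 4 genes of the core proteins were detected. They had from 1128 reads (GAR1) to 5499 reads (DKC1) over the 3 replicates, against 70 for the median detected member. NHP2 had 248 ± 10.4, NOP10 151 ± 6.69, DKC1 75.7 ± 7.92 and GAR1 73.3 ± 5.75 TPM (SD, n = 3), and the last pair differed by less than its spread. Of the factors of assembly, RUVBL2 had 118 ± 2.07 and RUVBL1 75.5 ± 4.15 TPM, and the dedicated chaperones NAF1 and SHQ1 had 25.4 ± 0.435 and 23.5 ± 1.77 TPM (SD, n = 3). Among Cajal body factors, NOLC1, the chaperone of snoRNPs known as Nopp140, was highest at 382 ± 32.5 TPM. COIL, the gene of coilin, had 53.5 ± 1.77 TPM, and WRAP53, which binds the CAB box, had 25.5 ± 0.339 TPM (SD, n = 3). SMN1, which has a near-identical copy that may share its reads, had 6.59 ± 0.537 TPM. The genes of RNA end processing and lariat opening, EXOSC10, TOE1, PARN, DBR1 and TENT4B, lay between 15.8 and 76.3 TPM.

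Telomerase RNA ends in an H/ACA domain bound by the same proteins. TERC had 1, 1 and 0 counts in replicates 1, 2 and 3 and was not detected, while TERT, the gene of the telomerase reverse transcriptase, had 82, 123 and 86 counts and 6.24 ± 0.815 TPM (SD, n = 3). TERC was the only gene of the 19 on the pathway list that was not detected. At 541 bases it is longer than every detected member. Overlap with exons of other genes and genomic copies were not examined for TERC. Its low counts do not show that the RNA was absent, and their cause was not tested.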

How the data were processed

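Per the methods and the submitters' processing notes, the authors trimmed the reads with Trim Galore (0.4.4), aligned them to GRCh38 with TopHat2 (2.1.1) and deposited raw, unnormalized read counts for 58051 genes. They name Cufflinks (2.2.1) for transcript abundances, but not the tool, annotation or strand setting behind the raw counts. Totals were 10390984, 12024802 and 8655155 counts. Identifiers were joined to GENCODE release 44 on the same build (56948 matched), and TPM was computed from the length of the union of exons. A host was the protein-coding or lncRNA gene on the same strand whose span contains the member, and of several the one with most counts. Copies were searched in chromosomes 1 to 22, X and Y with blastn (2.17.0), and sequences were aligned with biopython (1.88). Library sizes for the alternatives came from edgeR (4.0.16) and DESeq2 (1.42.0). The tests ran in scipy (1.17.1) under Python 3.11.15, with pandas (2.3.3), pysam (0.24.0), numpy (2.4.6) and R 4.3.3, and figures were drawn with matplotlib (3.10.9). The chi-square step was tested on simulated counts.

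Members, lists and tests were chosen with earlier results of these data known. Named in the text were the 10 members with the highest mean TPM and the 10 with most reads, all detected SCARNA genes, members of the hosts with most members (4 hosts, owing to a tie), members that passed the chi-square test and the pathway list. Any other member was chosen after its values were seen. Alternatives on opposite-strand overlap, genomic copies and SNORA73B were added after seeing the data.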

Additional observations from a re-analysis of the deposited data

How the results depend on the processing

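The number of detected members, 33, was 59 when 1 count in every replicate was enough, and otherwise stayed within 1.5 times, with 22 at a minimum of 10 counts and 24 with counts thinned to 50%. Without replicate 1, 2 or 3 it was between 33 and 41. The share of counts on members, 0.0338%, was 0.688% of the summed TPM, in which short genes count for more, and 0.0172% without SNORA73B. Leaving out each replicate gave 0.0336% to 0.0342%. The median level of detected members, 66.5 TPM, was 2.25 in CPM, which is another unit, and lay between 63.0 and 68.1 TPM with 1 replicate left out. Rescaling by TMM or DESeq2 factors moved none of the 33 levels by more than its SD. The 3 members that varied between libraries became 2 with TMM or DESeq2 scaling or without the minimum of 20 counts, and 0 with the common dispersion of edgeR added, under which 0.954% of all genes passed. With 1 replicate left out, 0 to 3 passed, and the cause was not tested. Detection of members under 150 bases, 12.1%, was 16% with an HGNC identifier, since fewer members without counts enter, and 12.1% to 16.2% with 1 replicate left out. That of members with at least 200 bases, 46.7%, lay between 46.7% and 53.3% with 1 replicate left out, and was 53.8% with an HGNC identifier and 55.6% without overlap with exons. The number of detected members above their host, 18 of 31, was 17 or 18 with 1 replicate left out. With protein-coding hosts alone, 11 of 24 were above. SCARNA13, SNORA71A, SNORA71B, SNORA71C, SNORA71D, SNORA26 and SNORA13 have no such host, and all of them were above their noncoding host. No paired analysis was possible because all 3 replicates belong to 1 condition. A few reads decide detection at this depth, as 19 of the 33 detected members had fewer than 100 reads.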

Other observations

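SCARNA9, a C/D box scaRNA that GENCODE release 44 lists as lncRNA and that is therefore not among the members, had 18, 21 and 16 counts in replicates 1, 2 and 3. Its mean level was 19.9 ± 0.462 TPM (SD, n = 3), between the levels of SNORA14B and SNORA63D, and it differed from both by less than their SDs.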
